A study of Rattus norvegicus with 12 samples.

Results

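The genes described here are 10 early response genes: Fos, Fosl1, Jun, Junb, Jund, Egr1, Egr2, Nr4a1, Btg2 and Atf3. Their RNA was read in rat left ventricles, 6 samples from animals that had run on a treadmill for 7 weeks (exercised) and 6 from animals that had not (sedentary), on 1 single-channel array of 8740 probe sets per sample. Every probe set that the platform annotation gives to a single one of these symbols was taken. That gave 19 probe sets for 9 of the 10 genes, of 4736 genes that a probe set of the array names alone. No probe set used here is annotated to Btg2 alone, so its expression was not analysed here. Not given in the sources used here are the strain, sex and age of the rats and the time from the last run to tissue collection. Samples are named by group and by the number in their label. Nothing in the labels says that the numbers stand for separate animals, so a p-value covers the spread among samples, which may in part be technical.

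Early response genes are transcribed within minutes of a growth factor, hormonal, mechanical or electrical stimulus, without new protein synthesis, and their messenger RNAs are short-lived. Fos and Jun proteins pair through leucine zippers to form the AP-1 factors, Egr proteins are zinc finger factors, Nr4a1 is an orphan nuclear receptor, and Btg2 is an antiproliferative regulator. In heart muscle, kinase cascades act on them through the serum response factor, which binds CArG boxes, and through CREB, which binds cyclic AMP response elements (CRE).

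Those elements were looked for in the 250 bases before each gene's start, as given by RefSeq on the GRCr8 build, where 7 of the 10 genes were matched (Fosl1, Junb, Jund, Egr1, Egr2, Nr4a1 and Btg2). No promoter was matched for Fos, Jun or Atf3. The 5 promoters below are those of Egr1, Egr2, Junb, Jund and Nr4a1, written 5′ to 3′ on the gene's strand. Capitals mark CArG boxes and CRE half-sites (TGACG on either strand). They lie at chr18:26736828-26737077 on the + strand for Egr1, chr20:21054442-21054691 on the - strand for Egr2, chr19:40080876-40081125 on the + strand for Junb, chr16:18769772-18770021 on the - strand for Jund and chr7:134259888-134260137 on the + strand for Nr4a1.
Egr1: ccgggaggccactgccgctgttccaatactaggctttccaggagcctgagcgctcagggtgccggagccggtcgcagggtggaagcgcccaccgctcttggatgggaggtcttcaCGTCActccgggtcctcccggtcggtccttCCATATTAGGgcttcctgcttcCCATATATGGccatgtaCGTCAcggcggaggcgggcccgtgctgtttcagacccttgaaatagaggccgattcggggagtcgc
Egr2: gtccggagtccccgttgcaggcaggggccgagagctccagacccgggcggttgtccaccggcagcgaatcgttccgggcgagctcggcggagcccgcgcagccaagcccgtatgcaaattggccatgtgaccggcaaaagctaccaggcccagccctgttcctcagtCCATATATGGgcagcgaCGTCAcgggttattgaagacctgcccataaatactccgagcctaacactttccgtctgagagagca
Junb: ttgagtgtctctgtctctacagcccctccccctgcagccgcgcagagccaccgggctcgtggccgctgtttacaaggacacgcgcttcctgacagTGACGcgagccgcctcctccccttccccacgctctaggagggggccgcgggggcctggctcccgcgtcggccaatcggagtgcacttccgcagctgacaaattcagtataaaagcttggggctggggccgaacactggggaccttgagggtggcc
Jund: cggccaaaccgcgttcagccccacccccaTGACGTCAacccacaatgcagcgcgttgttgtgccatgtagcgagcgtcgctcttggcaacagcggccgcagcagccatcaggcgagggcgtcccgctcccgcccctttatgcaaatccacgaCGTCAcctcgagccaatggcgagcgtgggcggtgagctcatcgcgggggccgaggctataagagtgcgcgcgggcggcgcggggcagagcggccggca
Nr4a1: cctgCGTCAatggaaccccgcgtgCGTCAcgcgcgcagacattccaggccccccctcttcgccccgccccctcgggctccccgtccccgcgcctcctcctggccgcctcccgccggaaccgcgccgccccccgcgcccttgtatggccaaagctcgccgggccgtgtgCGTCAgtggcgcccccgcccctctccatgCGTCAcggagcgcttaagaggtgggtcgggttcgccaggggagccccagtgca

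Egr1 held 2 CArG boxes, 105 to 96 and 83 to 74 bases before its start, and 2 CRE half-sites. Egr2 held 1 CArG box at the same distance, 83 to 74 bases before its start, followed by a half-site at 66 to 62, the position of 1 of the half-sites of Egr1. No CArG box was found in this window of the other 5 genes, and 1.5% of the 33469 promoters in the table held one. A CRE half-site was found in 7 of 7, with 4 in Nr4a1 and 1 in Junb, against 18.2% of all promoters. In Jund, 2 of its 3 half-sites overlap as the full element TGACGTCA, which was also found in Btg2 and in 1.59% of all promoters. A binding site for Egr proteins (GCGNGGGCG on either strand) was found in Jund, Nr4a1 and Btg2 and in 4.29% of all promoters. The AP-1 site TGANTCA, which 6.34% of all promoters hold, was found in none of the 7. These are matches of letters in a short window.

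Of the 19 probe sets, 17 passed the filter on dim probe sets, a mean intensity above 434 over the 12 arrays, and they cover 7 genes. The probe sets of Fosl1 (mean 326) and Egr2 (mean 336) did not. A difference is given as the exercised mean minus the sedentary mean of log2(intensity + 363), where the added constant shrinks the differences of dim probe sets. The test was limma over all 6555 probe sets that passed the filter, with Benjamini-Hochberg adjustment and a threshold of 0.05. The number of arrays limits the precision.

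Among the arrays, sedentary 17 stood apart from its group. It had the highest value of its group on 33.2% of the tested probe sets and the lowest on 34.3%, against 10.8% to 20.9% for every other array. Its median correlation with the arrays of its group was 0.967, against 0.988 to 0.992 for the other 11. On the early genes it was the highest of its group on 8 of the 19 probe sets and the lowest on 3, and results that rest on it are given with and without it. The cardiomyocyte markers, which check for heart muscle, were measured for 13 of 14 genes. They summed to between 446890 and 476407 in exercised and between 433323 and 480499 in sedentary arrays. The summed atrial markers (4 of 5 measured) lay between 24360 and 43734 in exercised and between 22481 and 51178 in sedentary arrays. The highest atrial sum of each group was on exercised 4 and on sedentary 16. Most of the sum was Pam (mean 16761 in exercised and 14434 in sedentary) and Nppa (12682 and 10943), both higher in exercised by sign. Myl4 and Myl7 were lower by sign, at 849 ± 41.4 and 1386 ± 78.6 in exercised samples. In sedentary samples they read 1165 ± 484 and 2575 ± 2991 (SD, n = 6 each). The summed fibroblast markers (8 of 12 measured, 7 of them higher in exercised by sign) lay between 49403 and 75565 in exercised and between 39099 and 53384 in sedentary arrays. By sign, 48.5% of all 3876 genes tested were lower in exercised. The summed macrophage and leukocyte markers (11 of 18 measured) lay between 23261 and 29043 and between 21957 and 24358. In that list Lyz2, the lysozyme of myeloid cells, was higher in exercised samples by 0.997 log2 (adjusted p = 0.0404, limma). It was the one marker of any list to pass, and C1qb, a complement gene of macrophages, differed by 0.37 (adjusted p = 0.0910). Others of the list went the other way, with Aif1 at -0.20 and Csf1r at -0.17 (adjusted p = 0.164 and 0.177, limma). By sign, 5 of the 11 were higher and 6 lower in exercised samples, with a median difference of -0.01. In tissue samples, fewer cells of a type and less RNA per cell cannot be told apart, and the part of these cell types in the results was not tested.

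No early gene changed past the threshold after training. Nr4a1 had the largest difference, lower in exercised samples on both of its probe sets, but with adjusted p-values of 0.103 and 0.130 (limma). None of the 17 tested probe sets was called, where 0.320% of all tested probe sets were. An unadjusted p under 0.05 was reached by 5 of the 17, all lower in exercised samples, where 6.91% of all tested probe sets were lower at that level. By sign alone, 16 of the 17 were lower, against 48.6% of all, with a median difference of -0.11 against 0.0027 over all tested probe sets. The exercised and sedentary values did not separate on any of the 19 probe sets, while 2.07% of all tested probe sets had groups that did not overlap. Probe sets of 1 gene share their transcript, so these counts are not counts of independent measurements.

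Without sedentary 17, 14 of the 17 probe sets were lower by sign, against 47.5% of all. An unadjusted p under 0.05 was reached by 5, each lower, against 7.77%. They were not the same 5. Atf3 entered (unadjusted p = 0.00560, limma) and rc_AA944014_at of Jun dropped out (0.0516). None of the 17 was called, against 0.366%. The median difference of the early genes was then -0.09. The number at an unadjusted p under 0.05 ran from 2 without sedentary 23 and 3 without exercised 4, 5 or 7 or sedentary 24 to 6 without sedentary 21 and 7 without sedentary 13.

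**Figure D1:**
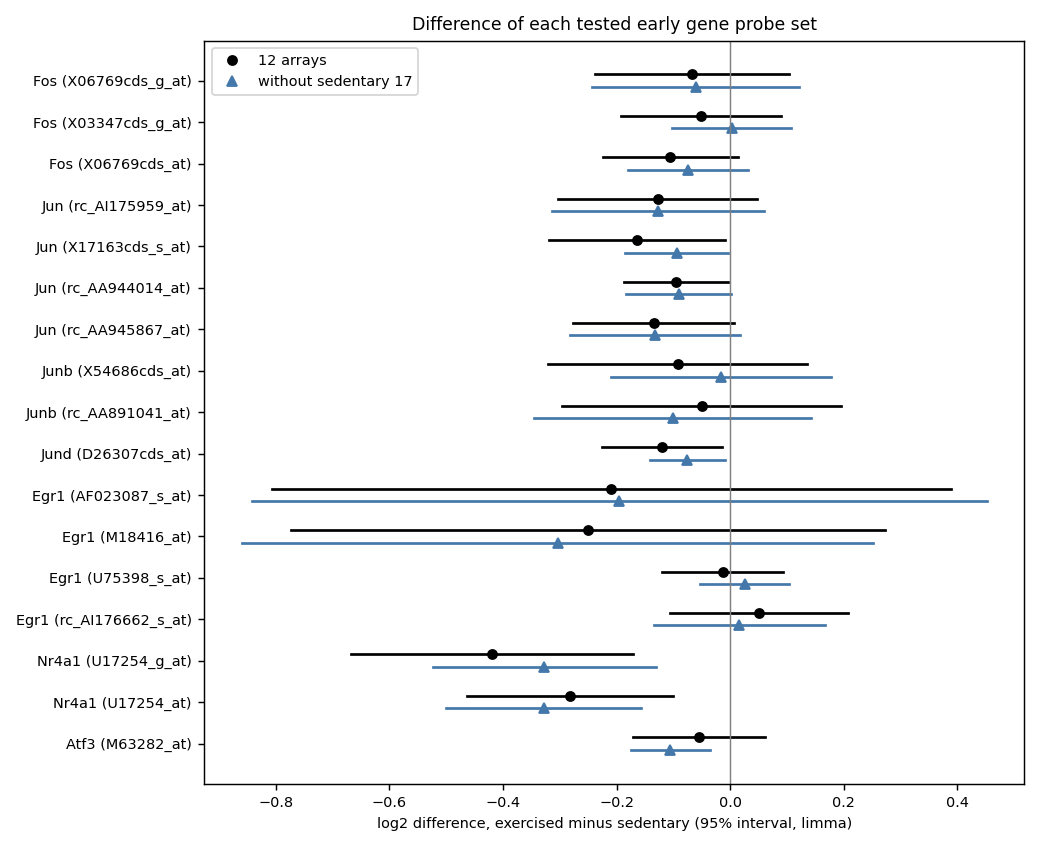
Difference between exercised and sedentary samples for each of the 17 tested early gene probe sets, on the log2(intensity + 363) scale, with 95% confidence intervals from limma, for all 12 arrays and without sedentary 17. The 2 Nr4a1 probe sets lie farthest below 0, and 2 of the Egr1 probe sets have the widest intervals.

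Fos, which forms AP-1 with the Jun proteins and is the classic marker of recent stimulation, was measured by 3 probe sets. The brightest, X06769cds_g_at, read from 3209 to 4785 in exercised samples (median 4191) and from 4042 to 4575 in sedentary samples (median 4308). Both the highest and the lowest value of the 12 arrays were exercised, from exercised 4 and exercised 8, so the sedentary range lay inside the exercised one. The difference was -0.07 ± 0.080 (SE), with a 95% interval from -0.24 to 0.10 and an adjusted p of 0.683 (limma). It was -0.0046 without exercised 8 and -0.11 without exercised 4. The other Fos probe sets differed by -0.05 (X03347cds_g_at) and -0.11 (X06769cds_at). X03347cds_g_at was highest on sedentary 17, at 4070, and its difference was 0.0025 without that array. Fosl1, a Fos relative that lacks its C-terminal transactivation domain, read 310 ± 16.2 in exercised and 341 ± 54.9 in sedentary samples (SD, n = 6 each). The highest Fosl1 value, 447, was on sedentary 17.

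Jun, the AP-1 partner through which Fos binds DNA, was lower by sign on its 4 probe sets, by -0.10 to -0.16. On the brightest, rc_AI175959_at, exercised samples read from 2014 to 2329 (median 2205) and sedentary samples from 1961 to 3125 (median 2453). The exercised arrays lay close together within the wider sedentary range, whose highest value was sedentary 16. The difference there was -0.13 ± 0.082 (SE; adjusted p = 0.448, limma). On the dimmer rc_AA945867_at the difference was -0.14 (adjusted p = 0.333), and on rc_AA944014_at it was -0.10 (unadjusted p = 0.0416, adjusted p = 0.282). The largest Jun difference, -0.16 on X17163cds_s_at (adjusted p = 0.276, limma), included a value of 2361 on sedentary 17 where the other 5 sedentary arrays read 1554 to 1793. Without sedentary 17 it was -0.09, while rc_AI175959_at stayed at -0.13. The latter moved with other arrays, to -0.06 without sedentary 16 and to -0.18 without sedentary 13.

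Junb, a weaker transactivator than Jun that can oppose it, differed by -0.09 ± 0.106 (SE) on X54686cds_at and by -0.05 ± 0.115 on rc_AA891041_at. Its X54686cds_at values ran from 1546 to 2305 in exercised and from 1665 to 2927 in sedentary samples. The lowest was exercised 4 and the highest sedentary 17, and the difference was -0.03 without exercised 4, -0.02 without sedentary 17 and -0.16 without sedentary 13. The second Junb probe set did not show that peak: sedentary 17 read 1163 on it, below the sedentary median of 1527.

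Jund, the member of the Jun family that is also expressed in unstimulated cells, was measured by 1 probe set, D26307cds_at. It was rather dim, with a mean of 670 at percentile 40.7 of all probe sets, and no detection calls were given. Its exercised values of 642, 615, 625, 625, 599 and 646 (exercised 1, 4, 5, 7, 8 and 9) hardly varied. Its sedentary values were 631, 702, 890, 632, 730 and 701 (sedentary 13, 16, 17, 21, 23 and 24). Sedentary 17 was the highest, and sedentary 13 and 21 fell inside the exercised range. The difference was -0.12 ± 0.050 (SE; unadjusted p = 0.0293, adjusted p = 0.248, limma), and -0.08 without sedentary 17 (adjusted p = 0.227). Atf3 (M63282_at), a stress-induced factor of the same leucine zipper class that can repress its targets, read 667 to 719 in exercised and 558 to 859 in sedentary samples. Its mean of 716 was similarly dim, at percentile 43.1. Here sedentary 17 was the lowest of its group. The Atf3 difference was -0.05 (adjusted p = 0.627, limma) with it and -0.11 ± 0.032 (SE; unadjusted p = 0.00560, adjusted p = 0.112) without it, and -0.02 without sedentary 23.

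Egr1, a zinc finger factor induced by stretch and growth factors, was the most variable of the early genes within groups on 2 of its 4 probe sets. On AF023087_s_at the exercised samples read 6427, 1942, 10715, 5723, 5567 and 5497 (exercised 1, 4, 5, 7, 8 and 9). The sedentary samples read 4875, 7841, 6645, 6137, 4702 and 8475 (sedentary 13, 16, 17, 21, 23 and 24). The lowest and the highest of the 12 arrays were both exercised, exercised 4 and exercised 5, a range of 5.52-fold within that group against 1.80-fold within the sedentary group. M18416_at put the same arrays at the ends of the exercised group, at 597 and 2960, a range of 4.96-fold. The within-group SD of these 2 probe sets was 0.57 and 0.50 log2, above 99.8% and 99.7% of all tested probe sets, whose median was 0.10. The group differences, -0.21 ± 0.279 and -0.25 ± 0.244 (SE), had 95% intervals from -0.81 to 0.39 and from -0.77 to 0.27, with adjusted p-values of 0.717 and 0.619 (limma). Without exercised 4 the differences were 0.05 and -0.04, and without exercised 5 they were -0.40 and -0.39.

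Exercised 4 and 5 were also the arrays with the least haemoglobin message. Hbb, the beta chain of haemoglobin in red blood cells and their precursors, read 15784 on exercised 4 and 8786 on exercised 5, and between 28362 and 37794 on the other 10 arrays. The 3 measured erythroid markers of 8 listed summed to between 13476 and 38361 in exercised and between 37211 and 42376 in sedentary arrays. Most of that sum was Hbb (mean 25034 in exercised and 34164 in sedentary samples), so the sum largely repeats the Hbb values. The other markers were far dimmer. Alas2 read 2320 ± 341 in exercised and 2891 ± 403 in sedentary samples, and Slc4a1 2457 ± 80.8 and 2685 ± 233 (mean and SD). Exercised 4 also had the highest fibroblast sum (75565) and the highest macrophage and leukocyte sum (29043) of the 12 arrays. It was the lowest of its group on 11 of the 19 early gene probe sets, and on 17.5% of all tested probe sets. Sedentary 13 was likewise the lowest of its group on 9 of the 19, and on 13.9% of all tested probe sets. Its fibroblast sum was 47492 and its macrophage and leukocyte sum 23200. Egr1 was at opposite ends of its exercised range on exercised 4 and 5, and the part of these cell types in its spread was not tested.

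The remaining Egr1 probe sets varied less. On rc_AI176662_s_at exercised 4 was again the lowest exercised array, at 988, and exercised 5 the highest, at 1440, and it was the single tested probe set of the early genes with a positive difference, 0.05 (adjusted p = 0.738, limma). U75398_s_at did not follow the others: it read 1209 on exercised 4 and 1127 on exercised 5. With group means removed, the correlations over the 12 arrays between AF023087_s_at, M18416_at and rc_AI176662_s_at were 0.946, 0.795 and 0.900, while those of U75398_s_at with these 3 ran from -0.284 to -0.0197. Probe sets of 1 gene share arrays and transcript, and these values are a description. Egr2 (U78102_at), the relative of Egr1 known for peripheral myelination, was dim, with 293 to 489 in exercised and 215 to 378 in sedentary samples. Its highest value was exercised 5, as on AF023087_s_at and rc_AI176662_s_at of Egr1 but not on the other probe sets of Egr1. Its correlation with Egr1 was 0.549 on AF023087_s_at, 0.685 on M18416_at, 0.845 on rc_AI176662_s_at and -0.477 on U75398_s_at. Without sedentary 17 these values were 0.706, 0.720, 0.808 and -0.0320.

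**Figure D2:**
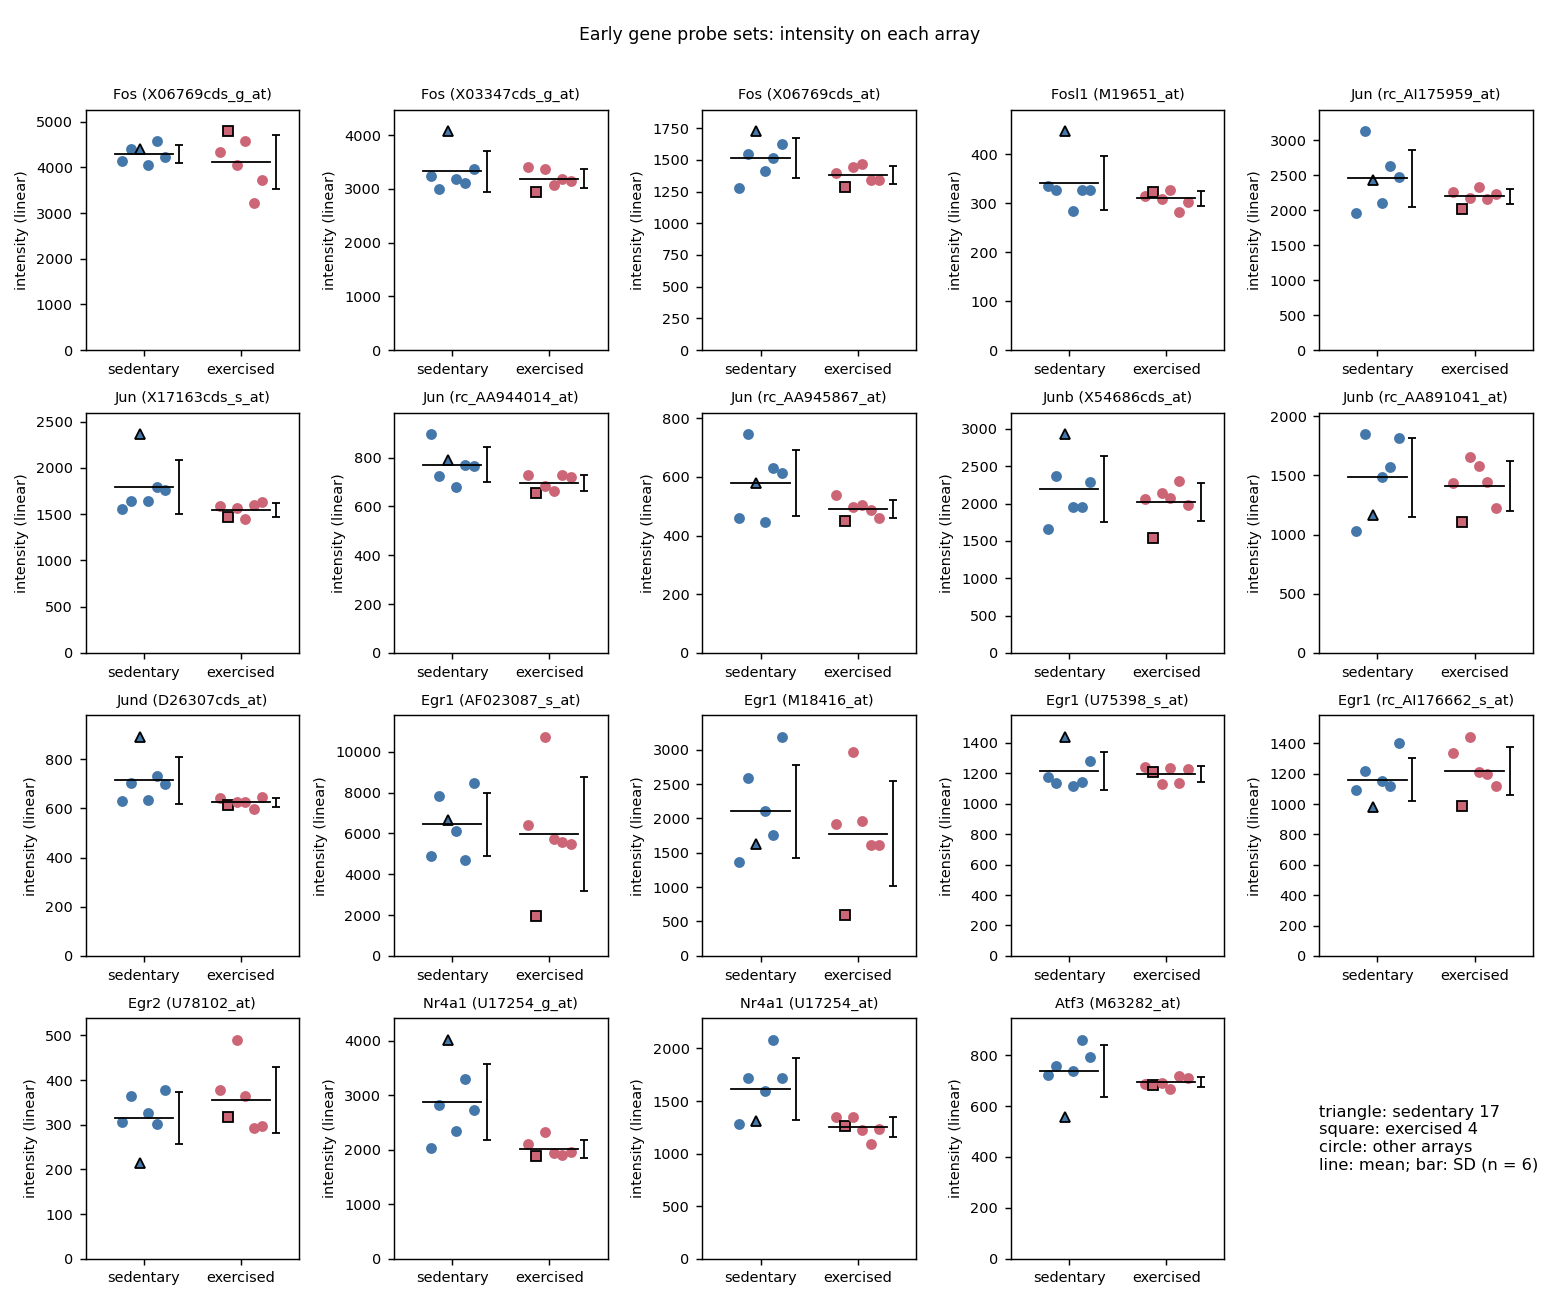
Deposited intensity, on a linear axis from 0, of the early genes in each exercised and sedentary sample, 1 point per array with the group mean (line) and SD (bar), with 1 panel per probe set. On AF023087_s_at Egr1 spans 1942 to 10715 within the exercised group, Nr4a1 is lower in the exercised group with overlap, and sedentary 17 (triangle) and exercised 4 (square) are marked.

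Nr4a1, a nuclear receptor also called Nur77 that adrenergic signals induce in heart muscle, read 2099, 1886, 2317, 1930, 1904 and 1952 on U17254_g_at in exercised samples (exercised 1, 4, 5, 7, 8 and 9). The sedentary samples read 2039, 2817, 4006, 2349, 3299 and 2720 (sedentary 13, 16, 17, 21, 23 and 24). Each of the 6 exercised values was below the sedentary mean, and sedentary 13 alone of its group lay inside the exercised range. On U17254_at the exercised samples read 1352, 1261, 1344, 1221, 1095 and 1239 and the sedentary samples 1281, 1716, 1309, 1598, 2078 and 1716, in the same order of arrays. There sedentary 13 and 17 overlapped with the exercised samples. The means were 2015 ± 166 against 2871 ± 702 on the first and 1252 ± 93.9 against 1617 ± 297 on the second (SD, n = 6 each).

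The log2 differences of Nr4a1 were -0.42 ± 0.116 (95% interval -0.67 to -0.17) and -0.28 ± 0.085 (-0.46 to -0.10), with SE from limma. Unadjusted p-values were 0.00271 and 0.00490, and the adjusted ones missed the threshold. A two-sided exact permutation test of each probe set alone, over 924 splits with a smallest possible p of 0.00216, gave 0.00866 and 0.0173. That test was run on each of the 19 early gene probe sets, without adjustment. It also gave 0.0195 for X17163cds_s_at of Jun, 0.0216 for Jund and 0.0411 for rc_AA944014_at of Jun. Without sedentary 17, which was the highest sedentary array on U17254_g_at and low on U17254_at, the differences were -0.33 on both (adjusted p = 0.0947 and 0.0677, limma). With estimated array weights, U17254_at passed, at -0.31 and an adjusted p of 0.0400 (limma). In that fit 160 of all tested probe sets passed, against 21 in the main fit. Over the settings tried, the smallest adjusted p of any early gene probe set ran from 0.0400 to 0.229, the latter without sedentary 23.

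The spread of Nr4a1 also differed between the groups. Its log2 SD was 0.10 and 0.09 in exercised against 0.31 and 0.22 in sedentary samples, and 0.23 and 0.21 in sedentary samples without sedentary 17. Of the 17 tested early gene probe sets, 13 had the larger SD in the sedentary group, against 67.5% of all tested probe sets. Without sedentary 17 the count was 12, against 45.2%. The difference in spread was not tested.

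The early genes were then compared with each other across arrays, with group means removed and the brightest probe set standing for each of the 7 tested genes. Over the 21 pairs the median correlation was 0.227, with 14 above 0, against a median of -0.0013 over all pairs of 3876 genes, of which 49.9% were above 0. Without sedentary 17 the median was 0.356 and 17 of the 21 were above 0, against 0.0016 and 50.1% over all pairs. All genes were read on the same arrays, so pairs are not independent. With the second brightest probe set of each gene the median was -0.0034, so that value rests on which probe set stands for a gene.

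With the brightest probe sets, Jund and Nr4a1 were the single pair to pass. Their Pearson correlation was 0.905 over 12 arrays (permutation p = 0.00133, adjusted over 21 pairs 0.0279), with a Spearman rho of 0.771 (permutation p = 0.0094). Both were highest on sedentary 17 and next highest on sedentary 23. The correlation was 0.950 within the 6 sedentary arrays (exact permutation p = 0.00139) and 0.312 within the 6 exercised arrays (exact permutation p = 0.556). Without sedentary 17 it was 0.838 with an adjusted permutation p of 0.123, and without sedentary 17 and 23, the arrays farthest from the median of Jund, it was 0.749. With U17254_at in place of U17254_g_at for Nr4a1 it was -0.0626, and 0.834 without sedentary 17, the array on which the probe sets of Nr4a1 differ most. The pair also missed the adjusted threshold when any 1 of sedentary 13, 16, 21, 23 or 24 was left out, and under Spearman correlation, quantile normalization or median centring of all 12 arrays.

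Junb and Egr1 had a correlation of 0.644 (permutation p = 0.0175, adjusted 0.183) and a rho of 0.657 (permutation p = 0.0367). It was 0.834 within the exercised arrays (exact permutation p = 0.0708) and 0.641 within the sedentary arrays (exact permutation p = 0.171). Exercised 4 was the lowest exercised array on both genes. Without sedentary 17 the value was 0.799 (adjusted permutation p = 0.123), without exercised 4 it was 0.444, and without both, the arrays farthest from the median of Junb, it was 0.584. With the second brightest probe sets (rc_AA891041_at of Junb and M18416_at of Egr1) the pair passed, at 0.819 (permutation p = 6e-05, adjusted 0.00126). It then passed again when any 1 array other than exercised 4 was left out, with correlations from 0.786 to 0.848, and had an adjusted permutation p of 0.0674 at 0.852 without exercised 4. Junb with Nr4a1 (0.696) and Junb with Jund (0.689) each had an adjusted permutation p of 0.225, and were 0.454 and 0.356 without sedentary 17. With the brightest probe sets no pair passed without that array.

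No pair with Fos passed the adjusted threshold. On its brightest probe set, the correlations of Fos with the other early genes ran from -0.351 with Egr1 to 0.245 with Jund. The probe sets of Fos gave correlations among themselves of -0.101, 0.208 and 0.560. On the dimmest of them, X06769cds_at, the correlation with rc_AA891041_at of Junb was 0.495, and 0.937 without sedentary 17. Over the 17 pairs of probe sets of 1 gene the median correlation was 0.178, beside 0.228 over the 154 pairs of different genes. The probe sets of Junb correlated at 0.368 and those of Nr4a1 at 0.235, and at 0.865 and 0.927 without sedentary 17.

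**Figure D3:**
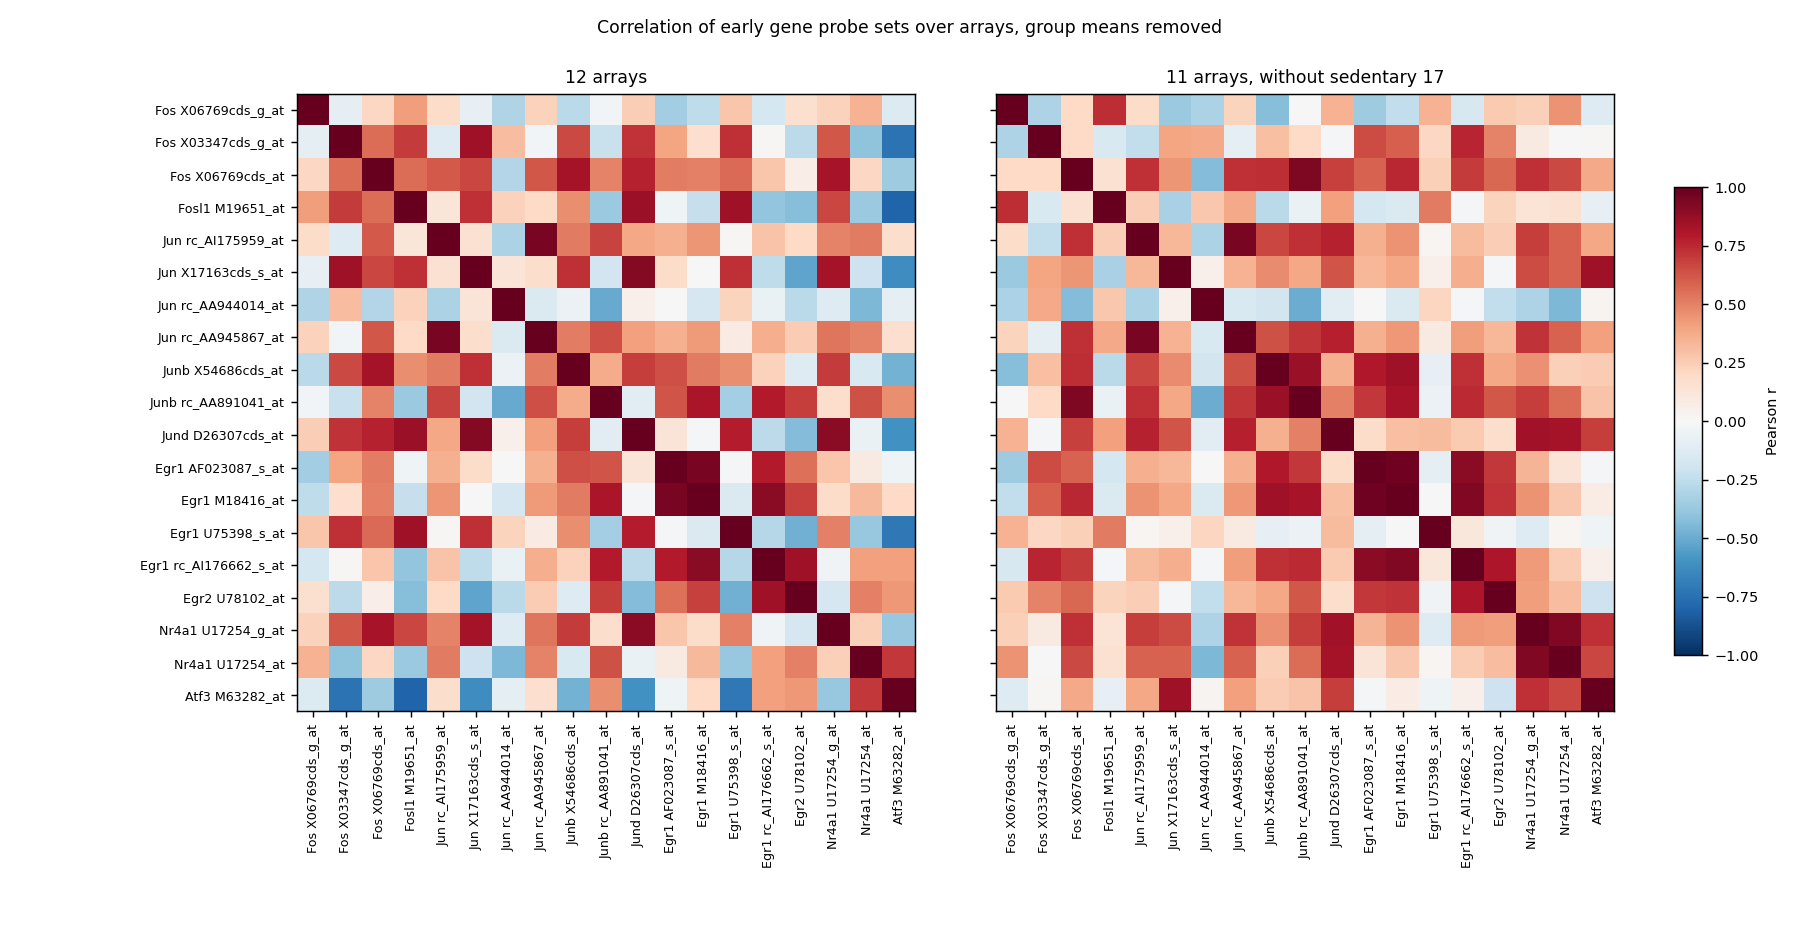
Pearson correlation of log2(intensity + 363), with group means removed, between the 19 early gene probe sets over all 12 arrays and over the 11 arrays without sedentary 17, on a colour scale from blue (negative) to red (positive). Jund with U17254_g_at of Nr4a1 is at 0.905 and 0.838, and Atf3 with that probe set goes from -0.378 to 0.734 when sedentary 17 is left out.

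**Figure D4:**
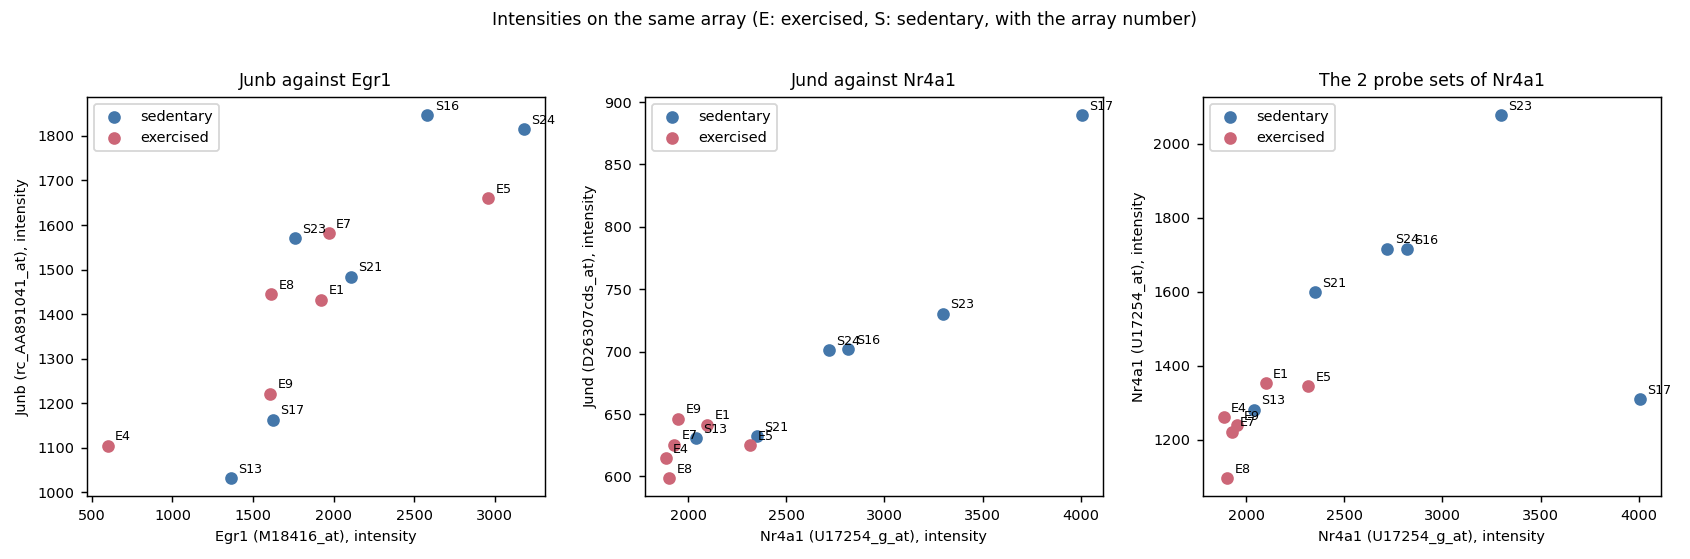
Deposited intensity, on linear axes that do not start at 0, of Junb (rc_AA891041_at) against Egr1 (M18416_at), of Jund against Nr4a1 (U17254_g_at) and of the Nr4a1 probe sets against each other, 1 point per array, E for exercised and S for sedentary with the array number. Sedentary 17 is the highest for Jund and U17254_g_at, and low on U17254_at. The correlation of the Junb and Egr1 probe sets plotted is 0.819 with group means removed.

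Of genes outside the family, those whose deviations were most like the mean of the 7 early genes were Itgb7 (r = 0.949), Slc22a2 (0.924), Stc1 (0.922), Tspan17 (0.919) and Syt3 (0.915), over 12 arrays with group means removed. Nearest to Egr1 were Rpl17 (0.937), Myl12a (0.873), Ets1 (0.817), Ccn1 (0.783) and Rpl30 (0.779). Ccn1 is itself an early response gene that encodes a secreted matrix protein, and Ets1 is a transcription factor. Nearest to Fos were Cr1l (0.915), Slc3a2 (0.913), Lgals3bp (0.907), Thbd (0.900) and Shisa4 (0.897). They are the highest of 3876 genes by choice, so these values carry no test.

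The wider early response did not pass the test either. Of 44 measured genes of 74 on a list of other early response genes, none was called by limma, and 3 were higher and 3 lower at an unadjusted p under 0.05. Of all tested probe sets 0.320% were called, and 6.91% were lower at an unadjusted p under 0.05. The share that was higher at that level was not taken, so the count of higher genes has no background beside it. The median difference of the list was -0.03, beside 0.0029 over the 3876 genes. Dusp5, a phosphatase that inactivates ERK in the nucleus, came nearest, at 1041 ± 45.4 in exercised and 1209 ± 18.9 in sedentary samples (SD, n = 6 each). Its difference was -0.16 with an adjusted p of 0.0542 (limma). Btg1, the paralogue of Btg2, differed by 0.19 (adjusted p = 0.196), Gadd45a, a stress gene that slows the cell cycle, by 0.19 (0.262) and Klf6, a zinc finger factor, by -0.15 (0.249). Of the closest relatives of the members none passed, with differences for Nr4a2 of -0.06, Egr3 of -0.04, Egr4 of -0.05, Fosl2 of -0.01 and Nr4a3 of 0.01.

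Upstream and downstream of the early genes no gene was called by limma, where 0.320% of all tested probe sets were. Over all tested probe sets, 6.91% were lower in exercised samples at an unadjusted p under 0.05. That share is for lower probe sets alone, and the counts of higher genes below have no such share beside them. Of 25 measured kinases and factors that act on them (48 listed), 2 were higher and 2 lower at an unadjusted p under 0.05, with a median of -0.04. The smallest p-values there belonged to Prkca (-0.11), the calcium-dependent protein kinase C alpha, Camk2d (0.18), the main cardiac calmodulin kinase, Rhoa (0.20) and Prkaca (-0.13), the catalytic subunit of protein kinase A. Of 13 measured transcription factors of the AP-1, CREB and related zipper families (29 listed), 1 was higher at an unadjusted p under 0.05, and the median was -0.01. Dbp, a zipper factor of the circadian clock, had the largest difference of these, 0.76 (adjusted p = 0.178), ahead of Mafk (0.07), Cebpd (-0.06) and Creb1 (-0.02). Of 27 measured target genes of AP-1 and Egr factors (40 listed), 1 was lower at an unadjusted p under 0.05 and the median was -0.01. Vegfa, the endothelial growth factor, differed by -0.16, Plat, tissue plasminogen activator, by 0.17, Fn1, fibronectin, by -0.09 and Vim, vimentin, by 0.18.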

How the data were processed

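Values are the intensity per probe set, on a linear scale, as deposited by the authors. Not given in the sources used here are the array software, background correction, scaling and detection calls. Median intensities lay between 840 and 875, so the deposited scaling was kept. Arrays were grouped by their titles, which share no numbers between groups and name no batch.

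Values below 0 were set to 0, and the pseudocount (363) was the 20th percentile of all values. Probe sets with a mean above the 25th percentile of means (434) were kept, 6555 of 8740. Groups were compared with limma 3.58.1 in R 4.3.3 (lmFit, then eBayes with a trend) in two-sided tests, adjusted by Benjamini and Hochberg's method. Symbols came from the platform annotation (7006 probe sets with 1 gene, 308 with several, 1426 unnamed), and for correlations and lists the brightest tested probe set stood for a gene. Correlations were tested with 100000 shuffles of the arrays within groups (Python 3.11.15, numpy 2.4.6, scipy 1.17.1) and within 1 group by exact permutation. The code was tested on simulated data.

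Every probe set of the members was named, with the 4 smallest p-values of each pathway list and the 5 genes nearest to the mean of the members, to Fos and to Egr1. Egr3, Egr4, Nr4a2, Nr4a3, Fosl2, Hbb, Alas2, Slc4a1, Pam, Nppa, Myl4, Myl7, Lyz2, C1qb, Aif1 and Csf1r were added after their values were seen. The members and lists were chosen with earlier results of these data known. Alternatives were other pseudocounts, a floor, filters, scalings, eBayes settings, array weights, Spearman correlation, other probe sets, each group alone and each array left out.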

Additional observations from a re-analysis of the deposited data

Results flagged for a closer look

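In 4 of 70 groups of 6 arrays that were checked, 1 array lay far from the other 5, by a gap larger, relative to the range of the group, than Dixon's 95% critical value. Chance gives about 1 in 20 such groups, and each of the 4 was sedentary 17. Of the early genes, Fos read 4069.54 there on X03347cds_g_at, where the other 5 sedentary arrays read 2996 to 3371. Fosl1 read 446.9 on M19651_at, where the others read 284.0 to 335. Jun read 2361.31 on X17163cds_s_at, where the others read 1554 to 1793. The small Maf factor Mafk, from the list of AP-1 relatives, read 1241.26 on rc_AA799744_at, below 1499 to 1632 on the others.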

How the results depend on the processing

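Over all alternatives that were run, no early gene probe set passed an adjusted p of 0.05 in limma, except 1 with array weights (U17254_at of Nr4a1). Over all probe sets the number called, 21, was 32 with no filter, 50 with a filter at the 50th percentile, 42 in eBayes without trend, 160 with array weights and 3 to 37 when each array was left out in turn. Early gene pairs past the adjusted p numbered 0 under Spearman correlation, quantile normalization, median centring and in the exercised group alone, against 1 (Jund with Nr4a1), and 0 to 1 with an array left out (0 without any 1 of the sedentary arrays). With the second brightest probe sets the median correlation was -0.0034 and 1 pair passed, but another one, Junb with Egr1. Leaving out arrays with those probe sets was added after seeing the data. Some small differences changed sign when an array was left out: Fos X03347cds_g_at ran from -0.077 to 0.0025, Junb rc_AA891041_at from -0.13 to 0.0056, Egr1 AF023087_s_at from -0.40 to 0.055 and Egr1 U75398_s_at from -0.031 to 0.025 (0.024 with array weights). Junb with Jund correlated at -0.0686 in the exercised group alone and at -0.108 with second brightest probe sets, which gave -0.0626 for Jund with Nr4a1. The cause was not tested. Of the other values of single probe sets and pairs, 446 were counted as keeping their direction and side of the threshold. A further 10 no longer passed and 13 newly passed, 12 of them Junb with Egr1 on the second brightest probe sets. The 446 include the exact permutation test of each of the 17 tested probe sets. That test repeats the main difference and has no adjusted p, so it was counted as unchanged in advance. With 6 arrays a group, the wide intervals of Egr1 and Junb allow differences in either direction, and Fosl1 and Egr2 lay below the filter. No paired analysis was possible because the groups share no replicate numbers.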
